A study of Mus musculus with 6 samples.

Results

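Foxp3 regulatory T cells (Treg cells) were the T cells of the tumours that carried at least 1 UMI of Foxp3, the transcription factor that defines the lineage; a UMI is a random barcode by which copies of 1 captured RNA molecule are counted a single time. Barcodes counted as cells from 500 UMIs upwards, if they had over 200 genes and less than 10% of their UMIs from mitochondrial genes. A Treg cell also held at least 2 UMIs of Cd3d, Cd3e and Cd3g together, no UMI of Cd8a or Cd8b1, under 0.2% C1q and under 1% S100a8 and S100a9 UMIs, and at most 1 UMI of Krt8 and Krt18. These limits left 186 Treg cells among 2940 T cells and 74546 cells in all. OE-Vector 1 gave 64 of them, and OE-MLKL 1, 2 and 3 gave 22, 46 and 54. The members were chosen by their measured counts of these genes, which are therefore described below without a test.

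The libraries came from orthotopic pancreatic tumours in C57BL/6 mice, seeded with KPC cells, a cancer line from the mouse pancreas. These cells carried either the vector alone (OE-Vector) or a construct that overexpresses mouse Mlkl (OE-MLKL), the pseudokinase that ruptures the membrane in necroptosis. The hosts were immunocompetent, 6 to 8 weeks old, and their tumours were taken 4 weeks after injection. Only the injected cancer cells carried the construct; the T cells were those of the host. The labels name 6 samples, 3 in each group, and count matrices of 4 of them were analysed here, so OE-Vector was 1 tumour and OE-MLKL was 3. Nothing in the labels says more of how the animals were housed or batched.

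Regulatory T cells restrain other lymphocytes and keep tolerance to self. They bind interleukin 2 through a high-affinity receptor, take the costimulatory ligands of T cells away through Ctla4, and release inhibitory cytokines such as interleukin 10. In tumours they usually have an activated, tissue-resident state, and in pancreatic cancer they are found beside macrophages and neutrophils.

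Of the markers Foxp3, Il2ra, Ctla4 and Cd3e, the gate itself used Foxp3 and Cd3e, so their levels describe the members and do not check the label, while Il2ra and Ctla4, given further on, were free of it. Foxp3 (chrX:7573644-7595245 of GRCm38/mm10, plus strand) stood at 456, 692, 736 and 780 CPM (UMIs scaled to a sum of 1e+06 over the Treg cells of a library) in OE-Vector 1 and OE-MLKL 1, 2 and 3, the order used for every set of 4 values below. Among barcodes with 100 UMIs or fewer, which hold free RNA, it stood between 0.48 and 2.09 CPM. CD8 T cells gated on Cd8a and Cd8b1 alone held a Foxp3 UMI in 1.43%, 0%, 1.33% and 0.802% of cells, and keratin-high cancer cells in 0.142% to 0.638%. Cd3e, a subunit of the T cell receptor complex, was at 473, 418, 488 and 990 CPM in Treg cells. Cd4 had a UMI in 53.1%, 31.8%, 52.2% and 51.9% of them, without being asked for.

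Members lay close to several limits. Of the 186 cells, 74 held exactly 1 Foxp3 UMI and 112 held more. The smallest allowed CD3 sum of 2 occurred in 28 cells, and 31 cells carried the 1 keratin UMI that was tolerated. A C1q UMI, from a macrophage gene, was present in 93 and an S100a8 or S100a9 UMI, from neutrophil genes, in 132. Altogether 372 cells held Foxp3. Just outside the gate were 15 cells that missed it only by a CD3 sum of 1, 14 only by having no CD3 and 16 only by a Cd8 UMI. Among cells that met the Foxp3, CD3 and Cd8 limits, 4 had more C1q, 10 more S100a8 and S100a9 and 25 more keratin. A cell could be counted under more than 1 of these last limits. The other cells with Foxp3 outside the gate missed more than 1 limit. No Treg barcode occurred as a cell in another library, while each pair of libraries shared 73 to 134 cell barcodes in all.

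The library totals ran from 150591289 to 169978362 UMIs, and a Treg cell held a median of 3591, 2758, 2458 and 2272 UMIs. The summed Treg counts were 346517, 69334, 145346 and 161564 UMIs, so values of OE-MLKL 1 were the least precise. A few deep cells weighed on the sum of OE-Vector 1. Its 6 Treg cells above 10000 UMIs gave 33.3% of its Treg UMIs, and 1 cell of 41927 UMIs gave 12.1%, against 0, 1 and 2 such cells in OE-MLKL 1, 2 and 3. Doublets were scored but kept, and 7 Treg cells were doublet-like, 5 of them in OE-Vector 1. In cells of the cancer cell gate, Mlkl was at 16.3 CPM in OE-Vector 1 and at 8.76, 12.9 and 20.03 CPM in OE-MLKL 1, 2 and 3. Mlkl was therefore not higher throughout the libraries labelled OE-MLKL, and every group difference below is between libraries as labelled. In Treg cells Mlkl had 1, 0, 3 and 0 UMIs. Of the sex-linked genes, Xist had no UMI in the Treg cells of any library and the Y-linked Ddx3y was detected in all 4.

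The Treg share of T cells varied between tumours, with no direction by group. Treg cells were 6.43% of T cells in OE-Vector 1 (exact binomial 95% interval 4.98 to 8.13), 4.07% (2.57 to 6.09) in OE-MLKL 1, 7.59% (5.61 to 10.0) in OE-MLKL 2 and 6.78% (5.13 to 8.75) in OE-MLKL 3. The OE-MLKL mean was 6.14% ± 1.84 (SD, n = 3), the OE-Vector value lay inside the OE-MLKL range, and the exact two-sided permutation test over libraries gave p = 1.0. With 1 library against 3 this test cannot go below 0.25. These intervals cover counting error only.

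As a share of all cells, Treg cells were fewer in each OE-MLKL library. They were 0.416% (0.321 to 0.531) of cells in OE-Vector 1 and 0.119% (0.0747 to 0.18), 0.199% (0.146 to 0.266) and 0.306% (0.23 to 0.399) in OE-MLKL 1, 2 and 3. The OE-MLKL mean was 0.208% ± 0.0939 (SD, n = 3), which is 0.208 percentage points below OE-Vector, and exact permutation p was 0.25, the smallest this design allows. T cells as a whole were also a lower share there, 6.48% of cells in OE-Vector 1 against 2.93%, 2.63% and 4.52%. The suspension share therefore moved together with all T cells, and its cause was not tested. Where the macrophage and neutrophil limits were tightened to no C1q UMI and at most 1 S100a8 or S100a9 UMI, far fewer cells passed in every library (18, 14, 21 and 5 Treg cells), and the Treg share of all cells was 0.117% in OE-Vector 1 against an OE-MLKL mean of 0.0651%, a difference of -0.0519 percentage points in the same direction.

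Against other T cells the balance depended on the cells it was set against. There were 11.6 Treg cells per 100 CD8 T cells in OE-Vector 1 and 6.01, 15.5 and 10.9 in the OE-MLKL libraries, a mean of 10.8 ± 4.74 (SD, n = 3, exact permutation p = 0.75). Of the Treg and conventional CD4 cells together, Treg cells were 25.3% in OE-Vector 1 against 27.5%, 27.7% and 34.4% in the OE-MLKL libraries (exact permutation p = 0.5). Conventional CD4 cells were T cells with at least 1 Cd4 UMI and no UMI of Foxp3, Cd8a or Cd8b1. A Cd4 UMI was thus required of them and not of Treg cells, and among all T cells without a Cd8 UMI, Treg cells were 14.6%, 12.6%, 15.1% and 18.1% (exact permutation p = 0.75), so that OE-MLKL 1 lay below OE-Vector 1. Since Foxp3 is seen more often in deeper cells, T cells were also thinned to 1000 UMIs each, after which 3.16%, 2.07%, 4.90% and 4.05% of them held Foxp3 as Treg cells.

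**Figure D1:**
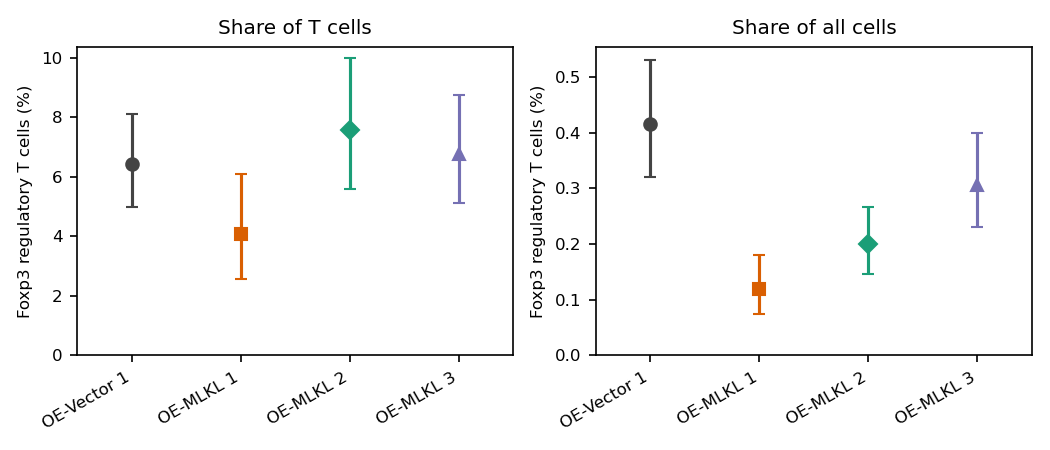
Treg cells as a percentage of T cells and of all cells in each of the 4 libraries, with exact binomial 95% intervals as bars (counting error only). As a share of T cells OE-Vector 1, at 6.43%, lies within the OE-MLKL range of 4.07% to 7.59%, and as a share of all cells it lies above the 3 OE-MLKL libraries.

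The next question was what set Treg cells apart from the most similar cells of the same tumours. For each library the counts of a class were added up, and 186 Treg cells were compared with 470 conventional CD4 cells (189, 58, 120 and 103) with edgeR's quasi-likelihood test, with the library as a term. Of 4280 genes tested, 124 were higher in Treg cells (2.90%) and 155 lower (3.62%), in all 6.52%, at an adjusted p under 0.05, with a median log2 difference of -0.01 over all genes. The number of calls in each list below is to be read against these shares. The 14 genes used by the gates were left out of the fit. The conventional gate takes in cells in which Foxp3 was present but not captured, and only it requires Cd4. All 25 genes named by rank below passed the threshold under every alternative setting that gave them a value. Counts of called genes depended more on the settings, with DESeq2 calling 69 higher and 79 lower, and without OE-MLKL 3 the counts were 80 and 90.

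Transcription factors and receptors of the Treg lineage were higher in Treg cells. Of the 16 genes of the Treg identity list, 11 were tested, 8 rose and 1 fell, with a median log2 difference of 1.17. Ikzf2 (Helios, chr1:69531214-69687245, minus strand), a transcription factor of stable Treg cells, was at 1362, 1399, 1534 and 2012 CPM in Treg cells and at 183, 192, 124 and 353 CPM in conventional CD4 cells. The classes did not overlap, and the log2 difference was 2.88 ± 0.15 (SE, edgeR adjusted p = 1.2e-10). Its relative Ikzf4 (Eos), which acts with Foxp3 in repressing genes, was at 188, 115, 103 and 204 CPM against 30.3, 12.0, 23.7 and 39.2 CPM, a log2 difference of 2.44 ± 0.25. Gm28112, an annotated transcript inside an intron of Ikzf2 on the same strand, stood 2.69 higher on the log2 scale, and its counts cannot be separated from Ikzf2 pre-mRNA with certainty.

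Il2ra (chr2:11642807-11693193, plus strand), the alpha chain of the interleukin 2 receptor, was at 912, 202, 420 and 662 CPM in Treg cells. Conventional CD4 cells held 179, 66.2, 119 and 174 CPM of Il2ra, so every library was higher in Treg cells, by 1.99 ± 0.16 on the log2 scale. The deepest OE-Vector 1 cell alone held 18.9% of all Il2ra UMIs of the Treg cells. Ctla4 (chr1:60887000-60915832, plus strand), the receptor that competes with Cd28 for B7 ligands, was at 713, 1385, 1355 and 1343 CPM against 228, 277, 279 and 370 CPM in conventional CD4 cells. Its log2 difference was 1.93 ± 0.14 (edgeR adjusted p = 1.7e-08). Il2ra and Ctla4 are defining markers of Treg cells that the gate did not use, and both were above the conventional cells in 4 of 4 libraries.

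Other members of the list behaved in the same way. Izumo1r, the folate receptor 4 of Treg cells, was 1.86 ± 0.19 higher on the log2 scale. The costimulatory TNF receptors Tnfrsf4 (OX40) and Tnfrsf18 (GITR) were 1.17 ± 0.16 and 0.85 ± 0.15 higher, and Capg, an actin-capping protein, 0.87 ± 0.15. Nrp1, a semaphorin receptor that is often used to mark thymus-derived Treg cells, fell, with a log2 difference of -1.26 ± 0.36 (edgeR adjusted p = 0.039). It stood at 66.4, 57.7, 27.5 and 49.5 CPM in Treg cells and at 55.6, 102, 163 and 263 CPM in conventional CD4 cells, so that OE-Vector 1 went the other way. Swap70 and Rgs1 did not pass the test, at log2 differences of 0.90 and -0.21. Lrrc32 (GARP), which presents latent TGF-beta, was too low to test, with 27, 1, 2 and 28 UMIs in Treg cells against 4, 0, 0 and 1 in more than 2 times as many conventional CD4 cells.

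Shares of cells with Ikzf2, Ctla4 or Il2ra were also higher in Treg cells of each library once depth was levelled. After thinning each cell to 1000 UMIs, with 1 Treg cell and 2 conventional CD4 cells left out as shallower, Ikzf2 was present in 68.8%, 59.1%, 66.7% and 81.5% of Treg cells. Conventional CD4 cells showed it in 13.3%, 8.62%, 14.2% and 25.5%, and CD8 T cells in 31.0%, 15.3%, 15.7% and 34.2%. Unthinned, the Treg shares of Ikzf2 were 89.1%, 95.5%, 89.1% and 92.6%. Thinned Ctla4 was present in 42.2%, 72.7%, 55.6% and 66.7% of Treg cells, 19.2% to 31.4% of conventional CD4 cells and 8.61% to 14.6% of CD8 T cells. Thinned Il2ra was lowest in OE-MLKL 1, at 13.6% of its Treg cells against 48.4%, 37.8% and 48.1% in the others. Conventional CD4 cells showed Il2ra in 11.7%, 5.17%, 9.17% and 13.7%, so the lowest Treg share lay within their range, and CD8 T cells in 2.93% to 5.80%.

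Cells admitted on 1 Foxp3 UMI were compared with those that held more. The 74 cells with 1 UMI held 1256, 1682, 1371 and 2229 CPM of Ikzf2, and the 112 cells with 2 or more held 1420, 1227, 1600 and 1904 CPM. In all 8 of these sums Ikzf2 lay above every conventional CD4 value. Il2ra was at 771, 153, 433 and 843 CPM with 1 Foxp3 UMI and at 988, 232, 414 and 573 CPM with 2 or more. Some identity genes were lower with 1 UMI in some libraries, as Tnfrsf4 in OE-Vector 1 and OE-MLKL 1 (878 against 1251 CPM and 765 against 1204 CPM). In OE-MLKL 2 and 3 Tnfrsf4 was higher with 1 UMI (746 against 675 CPM and 1218 against 971 CPM). Tnfrsf18 was higher with 1 UMI in OE-MLKL 3, at 880 against 712 CPM. In OE-MLKL 1, Tnfrsf18 stood at 421 CPM with 1 UMI and 672 CPM with more, and conventional CD4 cells held 409 CPM.

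Several genes of activation and suppression were higher as well. Of 24 listed, 18 were tested, 8 rose, 2 fell and 8 did not pass, with a median log2 difference of 0.61. Klrg1 (chr6:122270596-122282882, minus strand), a cadherin-binding inhibitory receptor of terminally differentiated effector cells, had the highest positive log2 difference of the named genes, 3.53 ± 0.36 (edgeR adjusted p = 1.8e-06). It stood at 211, 43.3, 75.7 and 86.7 CPM in Treg cells and at 12.1, 6.01, 18.4 and 2.80 CPM in conventional CD4 cells, on 101 and 21 UMIs in all. Thinned to 1000 UMIs, Klrg1 was present in 14.1%, 9.09%, 6.67% and 11.1% of Treg cells, in 2.13%, 0%, 2.5% and 0% of conventional CD4 cells and in 0.274% to 0.916% of CD8 T cells. Unthinned, 43 of the 186 Treg cells held a UMI of Klrg1, a share that rises with depth.

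Il10, the inhibitory cytokine, was at 159, 173, 316 and 309 CPM in Treg cells against 8.09, 30.1, 68.5 and 72.9 CPM, a log2 difference of 2.61 ± 0.29. In every library Treg cells were above the highest conventional CD4 value. Gzmb, granzyme B of cytotoxic granules, was at 1062, 274, 819 and 501 CPM against 181, 24.1, 171 and 56.1 CPM, a log2 difference of 2.57 ± 0.18. Itgb8, the integrin chain with which Treg cells activate latent TGF-beta, was at 54.8, 72.1, 41.3 and 74.3 CPM against 2.02, 6.01, 7.90 and 11.2 CPM, and its log2 difference of 3.26 ± 0.51 rested on 42 UMIs in Treg cells. Tgfb1 itself did not pass the test, at a log2 difference of -0.08 ± 0.17.

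The remaining members that rose were Tnfrsf9 (4-1BB, a costimulatory receptor of activated cells) by 1.81, Prdm1 (Blimp-1, a transcription factor of effector Treg cells) by 1.40, Maf (a transcription factor that drives Il10) by 1.13 and Icos (a costimulatory receptor) by 0.68, all on the log2 scale. An inhibitory and a decoy receptor fell. Pdcd1 (PD-1) was at 75.0, 216, 55.0 and 130 CPM in Treg cells against 122, 421, 314 and 314 CPM, a log2 difference of -1.32 ± 0.23. Il1r2, the decoy receptor of interleukin 1, had a log2 difference of -1.47 ± 0.29. Lag3, Havcr2, Entpd1, Nt5e, Il1rl1, Fgl2 and Batf did not pass the test. Ccr8, a chemokine receptor often used to mark tumour Treg cells, had 13, 1, 5 and 1 UMIs and was not tested.

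**Figure D2:**
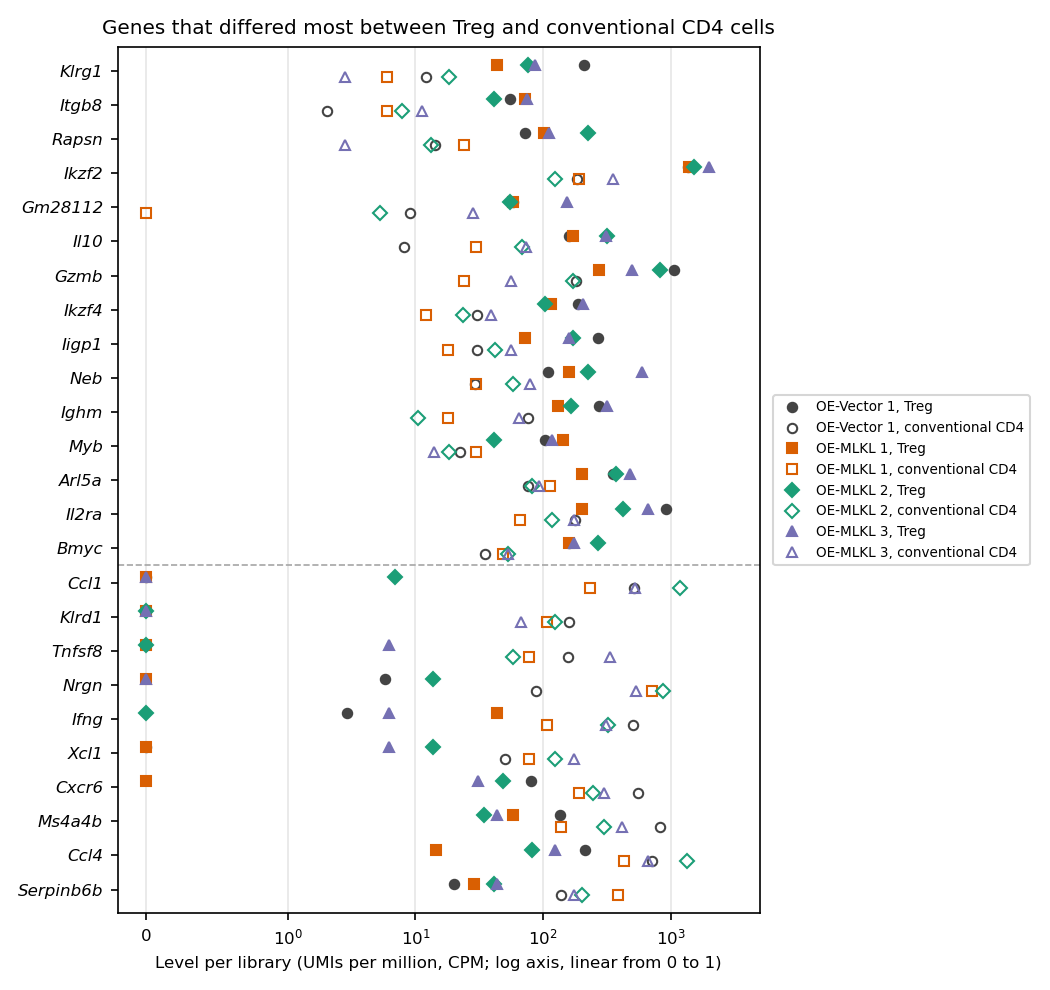
CPM of the 25 genes with the highest and lowest fitted log2 differences between Treg cells (filled) and conventional CD4 cells (open), 1 point per library and class, on an axis that is logarithmic above 1 CPM and linear below. The genes were selected as called and of 1 direction in all 4 libraries, so the distance between the classes is largely set by that selection. Ikzf2, for example, was at 1362 to 2012 against 124 to 353 CPM.

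Helper T cell cytokines were nearly absent from Treg cells. Of 22 listed helper genes, 12 had any UMI in Treg cells, 6 were tested, none rose and 4 fell, with a median log2 difference of -0.96. The list is not limited to cytokines or to helper cells, and it includes Nkg7 and Ccl5. It summed to 11176, 3553, 4439 and 6712 CPM in CD8 T cells and to 2288, 1901, 4076 and 2590 CPM in conventional CD4 cells. Ifng (chr10:118441046-118445892, plus strand), interferon gamma of type 1 helper cells, had 1, 3, 0 and 1 UMIs in Treg cells against 504, 18, 122 and 112 in conventional CD4 cells. In CPM, Ifng was 2.89, 43.3, 0 and 6.19 against 509, 108, 321 and 314, with all 4 libraries lower in Treg cells. The log2 difference was -5.74 with an approximate SE of 0.47 (edgeR adjusted p = 1.1e-07). That SE understates the counting error on 5 Treg UMIs. A single conventional CD4 cell of OE-Vector 1, with 17627 UMIs, held 291 of the 756 Ifng UMIs. Nkg7 (a granule protein), Ccl5 (a chemokine) and Il18r1 (an interleukin 18 receptor chain) fell by 1.37, 1.04 and 0.89 on the log2 scale.

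Il2, Il4, Il13, Il17a, Il21, Il22 and Csf2, the cytokines of several helper types, had 0 UMIs in the Treg cells of all 4 libraries. A count of 0 allows up to 4.15 CPM over the summed Treg cells, taking 3 counts as the limit. Of these, Il13 had 99, 3, 2 and 5 UMIs and Il21 had 20, 7, 18 and 13 in conventional CD4 cells. Of the 22 listed helper genes, 12, 14, 14 and 12 were at 0 in Treg cells. In conventional CD4 cells, whose summed counts were larger in each library, 1, 8, 6 and 5 were at 0. Cd40lg, the ligand with which helper cells license B cells, had 0, 1, 0 and 0 UMIs in Treg cells against 76, 3, 17 and 13. Tbx21 and Gata3, the transcription factors of type 1 and type 2 helper cells, did not pass the test, at log2 differences of -0.55 and -0.13.

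Several effector genes outside the lists were also at or near 0 in Treg cells. Ccl1, a chemokine, had 1 UMI in Treg cells and 1185 in conventional CD4 cells, a pooled ratio of 453 with a 95% counting interval of 81.1 to 17896. Klrd1 (CD94, a lectin-like receptor of cytotoxic cells) had 0 UMIs against 248, which makes it at least 31.6-fold higher in conventional CD4 cells when the limit of 3 counts is taken over the 4 libraries. Tnfsf8 (CD30 ligand) had 1 UMI against 310, a ratio of 118 (21.1 to 4693), and Xcl1, a chemokine for cross-presenting dendritic cells, 3 against 172, a ratio of 21.9 (7.37 to 107). Nrgn, a calmodulin-binding protein, had 2, 0, 2 and 0 UMIs against 87, 118, 329 and 192. The chemokine Ccl4 was at 214, 14.4, 82.6 and 124 CPM against 718, 433, 1349 and 659 CPM. A conventional CD4 cell of OE-Vector 1 with 17627 UMIs, as deep as the Ifng cell above, held 567 of 1529 Ccl4 UMIs. A cell of that library and depth also held the most Ccl1 (122 of 1185 UMIs) and Klrd1 (12 of 248). Ms4a4b, a membrane protein of T cells, and Serpinb6b, a serine protease inhibitor, fell by 2.77 and 2.62 on the log2 scale.

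Chemokine receptors split. Of 13 listed, 7 were tested, 2 rose and 2 fell, with a median log2 difference of 0.46. Ccr2, the receptor for monocyte-attracting chemokines, was at 364, 231, 358 and 439 CPM in Treg cells and at 180, 42.1, 65.9 and 61.7 CPM in conventional CD4 cells, a log2 difference of 1.84 ± 0.25 (edgeR adjusted p = 6.0e-05). Cxcr6 (chr9:123806475-123811760, plus strand), a receptor of tissue-resident effector T cells, was at 80.8, 0, 48.2 and 30.9 CPM against 557, 192, 248 and 303 CPM, a log2 difference of -2.95 ± 0.25. Cx3cr1, the fractalkine receptor, was at -1.49 ± 0.30. The gene Fyco1 lies over Cxcr6 on the opposite strand and had 24 UMIs in Treg cells.

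Among cytokine receptors and their signalling genes a few changed. Of 22 listed, 19 were tested, 4 rose and 1 fell, with a median of 0.17. Ifngr1 (a chain of the interferon gamma receptor) rose by 1.03, Il4ra (the interleukin 4 receptor) by 0.98 and Socs2 (a feedback inhibitor of cytokine signalling) by 1.11 on the log2 scale. Ifngr1 was at 687, 793, 784 and 1164 CPM in Treg cells against 417, 439, 324 and 412 CPM. Tgfbr2, the ligand-binding receptor for TGF-beta, fell, at 66.4, 28.8, 34.4 and 68.1 CPM against 154, 102, 124 and 121 CPM. The other chains that share interleukin 2 signalling, Il2rb and Il2rg, did not pass the test, at 0.17 ± 0.14 and -0.11 ± 0.20.

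Interferon-induced genes leaned towards Treg cells. Of 18 listed, 9 were tested, 4 rose and none fell, with a median log2 difference of 0.64. Iigp1, an immunity-related GTPase, was at 271, 72.1, 172 and 161 CPM in Treg cells against 30.3, 18.04, 42.2 and 56.1 CPM, a log2 difference of 2.32 ± 0.28 (edgeR adjusted p = 1.0e-05). Igtp and Gbp7, GTPases induced by interferon gamma, were 1.26 and 0.99 higher, and Ifi27l2a was 0.66 higher. Bst2, Ly6a, Gbp2, Gbp4 and Zbp1 did not pass the test. Ly6a was at 0.36 ± 0.11 (edgeR adjusted p = 0.059).

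Genes of the T cell receptor complex and its early response were more often lower. Of 23 listed, 21 were tested, 1 rose and 8 fell, with a median log2 difference of -0.47. The receptor beta chain constant genes Trbc1 and Trbc2 fell by 1.25 and 0.86, at 214, 216, 158 and 241 CPM of Trbc1 in Treg cells against 455, 589, 464 and 454 CPM. Trbc1 and Trbc2 are near-identical copies, so their split is uncertain. The alpha chain constant gene Trac did not pass the test, at 0.07 ± 0.13. Kinases and factors downstream that fell included Zap70 by 0.68, Nfatc1 by 0.85, Nr4a2 by 1.11, Egr1 by 0.60 and Junb by 0.36 on the log2 scale, while the adhesion receptor Cd2 rose by 1.02. Egr1 turned to 0.16 under the tighter macrophage and neutrophil limits. Egr1 and Junb also belong to the 12 handling and dissociation genes, of which 9 were tested and no other member passed.

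Resting and lymphoid-homing genes gave 1 call. Of 12 listed, 6 were tested, with a median log2 difference of 0.18, and over all genes 6.52% were called. Il7r, the interleukin 7 receptor of resting and memory cells, was at 263, 793, 709 and 712 CPM in Treg cells against 259, 337, 237 and 404 CPM, a log2 difference of 0.81 ± 0.19 (edgeR adjusted p = 0.012). Its OE-Vector 1 values were alike in both classes. Ccr7, which leads lymphocytes into lymph nodes, had 5.77, 0, 61.9 and 18.6 CPM in Treg cells and was not tested.

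The TNF receptor family and NF-kappaB list was balanced, with 14 of 17 tested, 2 higher, 3 lower and a median of 0.01. Tnfrsf1b (TNFR2, a receptor through which TNF expands Treg cells) rose by 0.93 and Cd27 (a costimulatory receptor) by 1.03. Rel (c-Rel, an NF-kappaB subunit), Bcl2a1b (a survival gene) and Tnfaip3 (a feedback inhibitor) fell by 1.14, 1.12 and 0.56 on the log2 scale. Bcl2a1b belongs to a family of near-identical copies, so its counts are uncertain.

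Adhesion genes were higher for 2 and lower for 5 of 15 tested, of 16 listed, with a median of -0.22. Itgb7, the chain that pairs with Itga4 or Itgae for the gut, was at 297, 130, 213 and 248 CPM in Treg cells against 210, 18.04, 60.6 and 64.5 CPM, a log2 difference of 1.21. Vim rose by 0.75. Itgal and Itgb2, the chains of LFA-1, fell by 1.22 and 0.69, Itgb1 by 1.39, Lgals3 by 1.24 and S100a4 by 0.56. Of the 23 metabolism and oxygen-response genes, 15 were tested and Pkm (pyruvate kinase) alone passed, higher by 0.46, with a median of 0.14. That is near the share over all genes, of which 6.52% were called. None of the 4 tested genes of the necroptosis machinery passed, of 8 listed, and their median was 0.22.

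Further genes rose by rank, most of them with less obvious ties to Treg cells. Rapsn, the scaffold of acetylcholine receptors, was at 72.1, 101, 227 and 111 CPM against 14.2, 24.1, 13.2 and 2.80 CPM, a log2 difference of 3.08 ± 0.37. Neb, the giant actin-binding protein nebulin, was at 110, 159, 227 and 594 CPM against 29.3, 30.1, 58.0 and 78.5 CPM, a log2 difference of 2.27 ± 0.24. Myb, a transcription factor that effector Treg cells need, was 2.17 higher on 71 UMIs, of which 15 came from the deepest cell. Arl5a, a small GTPase, and Bmyc, a relative of Myc, were 2.00 and 1.99 higher.

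Ighm, the constant region of immunoglobulin M, was at 274, 130, 165 and 316 CPM in Treg cells against 76.8, 18.04, 10.5 and 64.5 CPM, a log2 difference of 2.24 ± 0.26 (edgeR adjusted p = 7.1e-06). Its UMIs were spread over 88 of the 186 Treg cells, with at most 9 in 1 cell. The B cell and plasma cell list of 8 genes summed to between 31.6 and 131 CPM in free RNA and to between 159 and 322 CPM in Treg cells, with 4, 5, 5 and 6 genes at 0, and Ighm was its 1 tested gene. Its defining marker Ms4a1 had 0 UMIs in the Treg cells and Cd79a had 1, 0, 1 and 0.

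**Figure D3:**
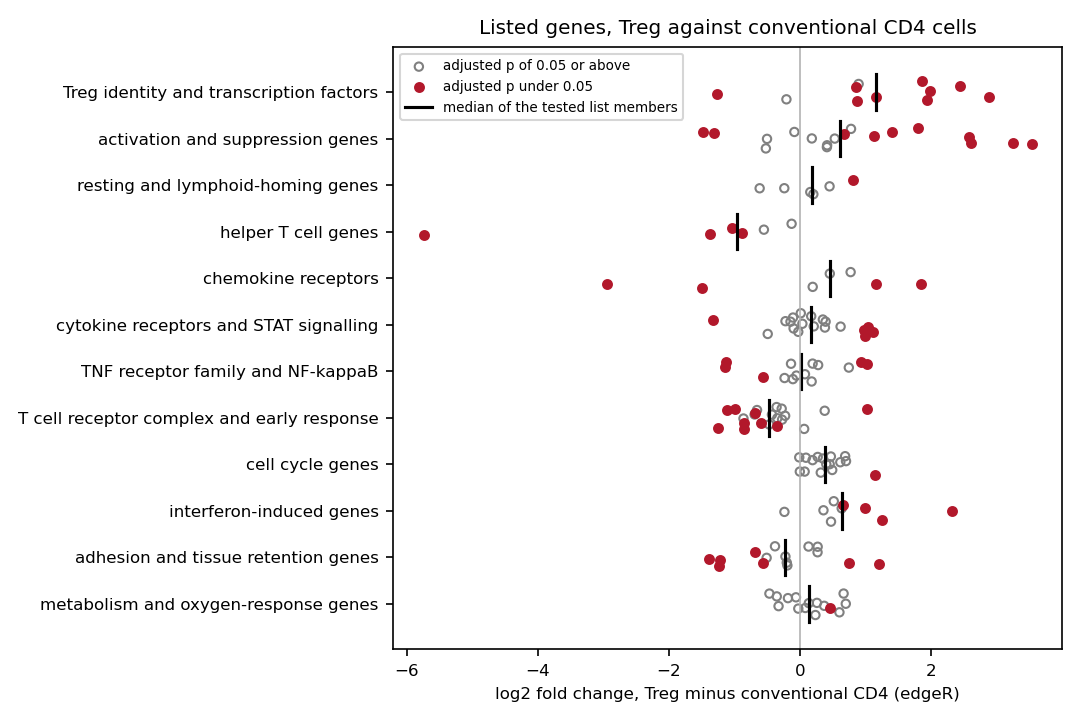
Log2 differences between Treg and conventional CD4 cells for every tested gene of 12 lists, with called genes in red (edgeR adjusted p under 0.05) and the median of each list in black. The median is highest for the Treg identity list at 1.17 and lowest for the helper T cell list at -0.96.

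Markers of other cell types were present in both classes. The 13 macrophage markers summed to 1076, 707, 1245 and 1758 CPM in Treg cells, to between 782 and 1973 CPM in conventional CD4 cells and to between 8661 and 13034 CPM in free RNA, and none of the 3 tested passed. The 10 neutrophil markers summed to 909, 418, 832 and 1523 CPM in Treg cells and to between 1193 and 2223 CPM in conventional CD4 cells, and 2 of the 4 tested, Il1b and Cxcl2, fell. The 10 cancer cell markers summed to between 95.2 and 217 CPM in Treg cells and between 151 and 233 CPM in conventional CD4 cells. The 10 NK and innate-like T cell markers were lower in Treg cells in all 4 libraries, at 283, 86.5, 200 and 223 CPM against 847, 235, 250 and 378 CPM, with Ncr1 at 0. The 8 fibroblast and endothelial markers were at 60.6, 144, 48.2 and 105 CPM against 805, 42.1, 63.2 and 135 CPM, so the conventional CD4 cells of OE-Vector 1 stood apart. The 11 dendritic cell markers were at 1437, 72.1, 454 and 650 CPM against 818, 60.1, 158 and 1494 CPM. Of the 4 red blood cell markers, 1 had any UMI. Of these lists 1 fibroblast and endothelial marker and 1 NK marker were tested and did not pass, and neither did the 3 tested dendritic cell markers or the 2 tested sex-linked genes. The CD8 T cell markers were at 0 by the gate. The part of other cells in the differences above was not tested.

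The study's design asks what MLKL overexpression in the cancer cells changes in the tumour, and within Treg cells the contrast was 3 OE-MLKL libraries against 1 OE-Vector library. Of 3861 genes tested, 5 were higher (0.130%) and 7 lower (0.181%) in the libraries labelled OE-MLKL at an edgeR adjusted p under 0.05, with 210 genes at an unadjusted p under 0.05 and a median log2 difference of 0.06. The filter on low counts could be met by 1 library here, so a gene could enter the test through the library in which it was high. The spread was estimated among the OE-MLKL tumours alone (2 residual degrees of freedom), and the lone OE-Vector tumour was assumed to vary like them. With so few degrees of freedom, the estimate for each gene drew largely on the other genes tested. DESeq2 called no gene, with 51 at an unadjusted p under 0.05. Leaving out OE-MLKL 2 left no call by edgeR, with 135 genes at an unadjusted p under 0.05, while leaving out OE-MLKL 3 gave 45 calls and leaving out OE-MLKL 1 left Chil3, Penk and Gm43305.

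Of the 7 genes that were lower in OE-MLKL Treg cells, Ifi27l2a kept its call under the most alternatives. Ifi27l2a (chr12:103442167-103443680, minus strand), an interferon-induced mitochondrial protein, was at 1313 CPM in OE-Vector 1 and at 288, 303 and 600 CPM in OE-MLKL 1, 2 and 3. OE-Vector 1 was above all 3, by a log2 difference of -1.75 ± 0.45 (edgeR adjusted p = 0.039). It was called under 10 of the 13 alternatives, also with all cells thinned to 1000 UMIs, where it was the 1 gene called, but not by DESeq2 or without OE-MLKL 1 or 2. Conventional CD4 cells showed 720, 253, 261 and 263 CPM of it.

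Areg (chr5:91139599-91148432, plus strand), amphiregulin, a growth factor that tissue Treg cells secrete in repair, was at 190, 14.4, 6.88 and 99.0 CPM on 66, 1, 1 and 16 UMIs, a log2 difference of -2.10 ± 0.52 (edgeR adjusted p = 0.021). Conventional CD4 cells held 37.4, 0, 10.5 and 70.1 CPM. Areg was found in 23 Treg cells, and 1 of them held 15 of the 84 UMIs. With the cells above 10000 UMIs left out, an alternative chosen after seeing the data, Areg, Ifi27l2a and Chil3 were the 3 genes still called.

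Penk, Hspe1 and Hsph1 lost their calls when the deepest cells were left out. Penk, the precursor of enkephalin peptides, was at 505, 0, 20.6 and 167 CPM, and 111 of its 205 UMIs lay in the OE-Vector 1 cell of 41927 UMIs. Hspe1 and Hsph1, chaperones of protein folding, were at 488, 115, 172 and 136 CPM and at 176, 0, 27.5 and 74.3 CPM, with log2 differences of -1.79 and -2.15, and the same cell held 40 of 224 and 21 of 77 UMIs. Hspe1 overlaps Hspd1 on the opposite strand. Without the cells above 10000 UMIs none of the 3 passed, with Hspe1 at -1.18 and Hsph1 at -1.80. Penk stayed lower in all 12 alternatives that gave it a value, between -5.11 and -0.93.

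Cd74 (the invariant chain of MHC class II) was at 846, 28.8, 241 and 402 CPM and H2-Ab1 (an MHC class II chain) at 329, 28.8, 75.7 and 136 CPM. Their log2 differences were -1.85 and -1.94, and 1 doublet-like OE-Vector 1 cell of 12310 UMIs held 139 of 395 Cd74 and 65 of 149 H2-Ab1 UMIs. Without doublet-like cells the log2 difference was -0.26 for Cd74 and turned to 0.83 for H2-Ab1. The 11 dendritic cell markers, which include both genes, summed to 1437, 72.1, 454 and 650 CPM in Treg cells, with 4, 8, 8 and 7 genes at 0, and to 2724, 1059, 1204 and 3541 CPM in free RNA.

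Of the genes that were higher, Chil3, a chitinase-like protein of macrophages and neutrophils, had 2, 0, 65 and 8 UMIs. The pooled ratio was 33.6 (95% counting interval 8.98 to 283) and 6.00 (1.20 to 58.0) without OE-MLKL 2, where Chil3 was too low to be tested. OE-MLKL 1 had none, and 1 cell of OE-MLKL 2 held 31 of the 75 UMIs. Conventional CD4 cells also held more Chil3 in the OE-MLKL libraries, at 10.1, 186, 145 and 188 CPM. Spock2, a matrix proteoglycan, had 3, 10, 21 and 9 UMIs, a pooled ratio of 12.3 (3.91 to 62.1) with at most 2 UMIs in any cell, and conventional CD4 cells held 4.04, 90.2, 65.9 and 14.0 CPM. Gm43305, a processed transcript at chr14:54292443-54297456, was at 11.5, 115, 131 and 111 CPM, a log2 difference of 3.26 ± 0.74. Hist1h2ap, a histone gene of dividing cells, was at 80.8, 505, 475 and 167 CPM, a log2 difference of 2.19 ± 0.54. In these last 3, each OE-MLKL library was above OE-Vector 1.

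AY036118 (chr17:39847113-39848035, minus strand), which overlaps annotated ribosomal RNA, was at 263, 260, 4410 and 142 CPM, so only OE-MLKL 2 was high. Conventional CD4 cells of that library were high too, at 3038 CPM. Without OE-MLKL 2 its log2 difference was -0.51.

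**Figure D4:**
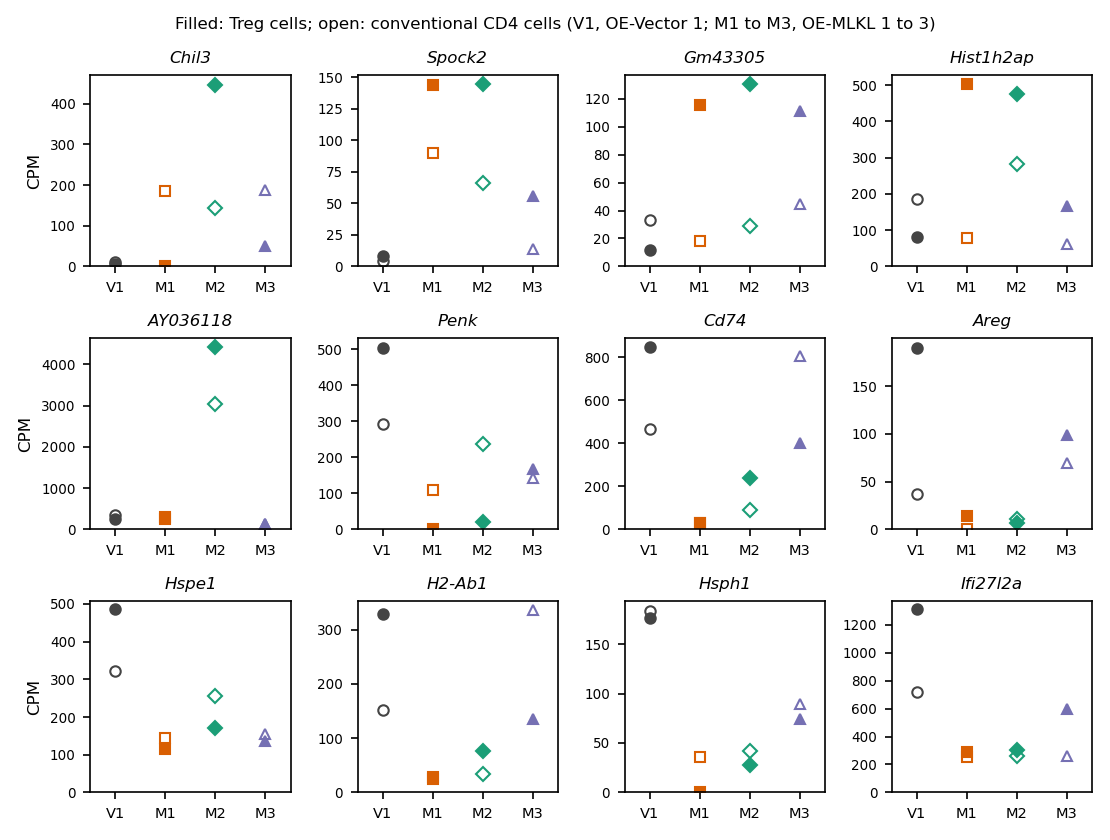
CPM per library of the 12 genes called between OE-MLKL and OE-Vector Treg cells (filled) with conventional CD4 cells beside them (open); V1 is OE-Vector 1 and M1 to M3 are OE-MLKL 1 to 3. Ifi27l2a falls from 1313 CPM in V1 to between 288 and 600 CPM, and AY036118 is high in M2 alone.

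None of the Treg identity genes passed between the groups, with 13 of 16 tested and a median log2 difference of -0.09. Ikzf2 was at 0.24 ± 0.56 and Ctla4 at 0.91 ± 0.56 on the log2 scale, and Il2ra was at -1.09 ± 0.45 (edgeR adjusted p = 0.63). Of the 24 activation and suppression genes, 18 were tested and Areg alone passed, and Klrg1 was at -1.57 ± 0.49 (edgeR adjusted p = 0.24). Il7r, at 263 CPM in OE-Vector 1 and 712 to 793 CPM in OE-MLKL, had a log2 difference of 1.46 ± 0.53 that did not pass (edgeR adjusted p = 0.46).

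The interferon list leaned down, with 9 of 10 tested genes below 0, 1 called and a median log2 difference of -0.77. The metabolism list had 12 of 14 below 0, none called and a median of -0.53. Its sums were highest in OE-Vector 1 in Treg cells, at 8196, 5409, 6612 and 5583 CPM. The same held for conventional CD4 cells, at 7286, 4938, 5796 and 4625 CPM, and for free RNA, at 5948, 4926, 5467 and 4875 CPM. Over all genes 0.311% were called, and the 1 interferon gene called was Ifi27l2a, described above. The summed levels of the interferon genes were lower in other material of the OE-MLKL libraries as well. They were 4436, 1687, 2979 and 3008 CPM in Treg cells, 3164, 1215, 1626 and 1957 CPM in conventional CD4 cells and 2725, 989, 1164 and 1729 CPM in free RNA. OE-Vector 1 was highest in all 3. No gene of the resting, helper, chemokine receptor, cytokine receptor, TNF receptor, T cell receptor, cell cycle, adhesion or necroptosis lists passed by edgeR, with medians between -0.38 and 0.47.

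Whether a group difference was particular to Treg cells was tested as an interaction in the fit of both classes. Its filter on low counts, too, could be met by the sum of 1 class in 1 library. Of 6504 genes tested, 39 passed (0.600%), 27 with a more positive OE-MLKL difference in Treg cells than in conventional CD4 cells and 12 (0.185%) with a more negative one, with 467 genes at an unadjusted p under 0.05. DESeq2 called none, with 51 at an unadjusted p under 0.05, and without cells above 10000 UMIs 14 passed, of which 10 were among the 39. Of the 12 genes called between the groups, Hist1h2ap (2.52), Gm43305 (3.36), Penk (-1.94) and H2-Ab1 (-1.72) were among the 39, as differences of log2 differences, and the other 8 were not. Leaving out OE-MLKL 1 or OE-MLKL 2 gave 19 and 22 calls, and the tighter macrophage and neutrophil limits gave 2.

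Of the 24 lists, cell cycle genes held the most of these calls. Of 16 tested, 6 had a more positive difference in Treg cells (0.415% of all genes did) and none a more negative one, with a median of 0.96 against -0.01 over all genes. Top2a, a DNA topoisomerase of dividing cells, was at 338, 476, 544 and 495 CPM in Treg cells and at 427, 108, 258 and 219 CPM in conventional CD4 cells, a difference of the log2 differences of 1.65 ± 0.31 (edgeR adjusted p = 0.00032). Conventional CD4 cells of OE-Vector 1 were the high ones and those of OE-MLKL the low ones, while Treg cells were the reverse. The conventional CD4 cells of OE-Vector 1 included 18 cells above 10000 UMIs, against 1, 3 and 3 in the OE-MLKL libraries. They also held 805 CPM of the fibroblast and endothelial markers, against 42.1, 63.2 and 135 CPM, and the part of such RNA was not tested. Doublet-like cells were 7.94%, 6.90%, 3.33% and 5.83% of the conventional CD4 cells, and without doublet-like cells of either class 40 genes passed, of which 36 were among the 39. Pclaf, a clamp-binding factor of replication, was at 205, 274, 261 and 192 CPM against 347, 96.2, 153 and 70.1 CPM, a difference of 1.91 ± 0.37. Stmn1, Birc5, Mki67 and Hmgb2 gave 1.48, 1.59, 1.36 and 0.91. Without cells above 10000 UMIs, Top2a, Birc5 and Mki67 stood at 1.30, 1.95 and 0.72 and no longer passed, while Pclaf, Stmn1 and Hmgb2 did. Under the tighter macrophage and neutrophil limits none of the 6 passed and Mki67 stood at -0.081. Within Treg cells alone none of the 15 cell cycle genes tested passed between the groups, with a median of 0.09.

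The 16 cell cycle genes together summed to 4516, 6231, 5078 and 3825 CPM in Treg cells and to 5356, 2352, 3725 and 2327 CPM in conventional CD4 cells. Their ratio was 0.843 in OE-Vector 1 and 2.65, 1.36 and 1.64 in the OE-MLKL libraries. CD8 T cells lay between 4467 and 5354 CPM. After thinning to 1000 UMIs, cells with at least 3 cell cycle UMIs were 31.2%, 40.9%, 42.2% and 25.9% of Treg cells, 32.4%, 15.5%, 28.3% and 18.6% of conventional CD4 cells and 30.6%, 42.5%, 49.5% and 29.4% of CD8 T cells. The Treg intervals were wide, from 20.7% to 63.6% in OE-MLKL 1, and overlapped those of conventional CD4 cells. Free RNA carried 1761 to 2525 CPM of the same genes. In the comparison of classes, 1 of the 16 genes, Tk1, was higher in Treg cells, where 2.90% of all genes were higher.

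**Figure D5:**
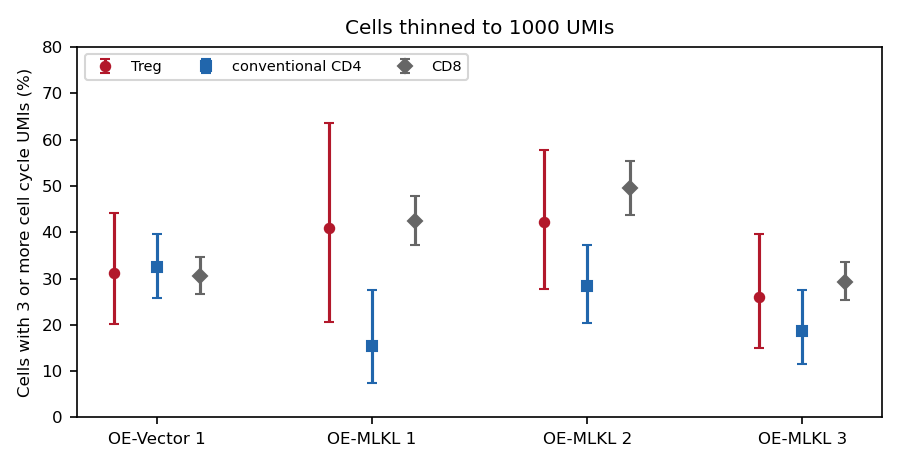
Percentage of Treg, conventional CD4 and CD8 T cells with at least 3 UMIs of 16 cell cycle genes after thinning every cell to 1000 UMIs, per library, with exact binomial 95% intervals (counting error only). In OE-Vector 1 the 3 classes lie between 30.6% and 32.4%, and in each OE-MLKL library conventional CD4 cells are lowest.

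Among the receptors, Nrp1 had a more negative difference in Treg cells (-2.40 ± 0.59), since conventional CD4 cells of OE-MLKL held 102 to 263 CPM of Nrp1 against 55.6 CPM in OE-Vector 1 while Treg cells stayed between 27.5 and 66.4 CPM. Tox, a transcription factor of chronically stimulated T cells, behaved alike, with 115, 72.1, 89.4 and 80.5 CPM in Treg cells and 72.8, 259, 234 and 272 CPM in conventional CD4 cells (-2.28 ± 0.48). Ccr2 gave 1.60 ± 0.38 and Il7r 1.17 ± 0.31. For Ccr2 it was the conventional CD4 cells that were lower in OE-MLKL, as the values given above show, and for Il7r the Treg cells that were higher.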

How the data were processed

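Single-cell suspensions of whole orthotopic tumours were sequenced with droplet-based 3′ RNA sequencing, 1 tumour to a library. The authors deposited unfiltered UMI counts per gene and barcode (32285 genes, mm10). The matrix header names Cell Ranger 7.1.0 and the submitters' processing notes 2.1.1, and the study's methods state yet another version; whether intronic reads were counted is not given in the sources used here. The matrices of OE-Vector 2 and 3 were not analysed here.

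Cells and classes were gated by counts as given above, in Python 3.11.15. Doublet-like cells were scored with scikit-learn 1.9.0 against simulated doublets at 0.8% per 1000 cells and removed only in an alternative. Counts were summed per library and class and tested with edgeR 4.0.16 (TMM, filterByExpr, quasi-likelihood, Benjamini-Hochberg over all genes tested), after the scripts were tested on simulated data. Each SE was the absolute log2 difference divided by the square root of edgeR's F statistic, so it is approximate. Shares were compared by exact permutation over libraries (scipy 1.17.1). Alternatives used DESeq2 1.42.0, limma-voom (limma 3.58.1), other gates and filters, thinning and leaving out libraries. Gene positions came from GENCODE vM21.

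Named genes were the 15 highest and 10 lowest by fitted log2 difference among called genes with at least 20 UMIs in the higher class and 1 direction in all 4 libraries, every called gene between groups, and, from 24 lists, up to 4 members by absolute log2 difference plus others needed to describe them. The members and lists were chosen with earlier results of these data known. Replicates were separate tumours. Between classes, the edgeR p-values rest on how the class difference varied from tumour to tumour. Between groups they rest on the spread of the OE-MLKL tumours only. In each fit edgeR estimated the spread of a gene with help from the other genes tested. A p-value therefore does not measure a gene's own spread alone, and Chil3 and AY036118 were called although OE-MLKL 2 held most of their UMIs. Results for a few list members are not reported here.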

Additional observations from a re-analysis of the deposited data

Results flagged for a closer look

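The OE-MLKL minus OE-Vector difference itself differed between Treg and conventional CD4 cells for 39 genes by the interaction test of edgeR, which is why the 18 listed genes among them are given again here as differences of log2 differences. Positive values mean a more positive difference in Treg cells. Those of cell division were Pclaf 1.91, Top2a 1.65, Birc5 1.59, Stmn1 1.48, Mki67 1.36 and Hmgb2 0.91. Receptors and adhesion genes with positive values were Ccr2 1.60, Itgb7 1.49 and Il7r 1.17, and Fgl2, a secreted fibrinogen-like protein, and Rgs1, a brake on chemokine receptor signalling, stood at 1.63 and 1.03. Negative values were found for Nrp1 at -2.40, Tox at -2.28, H2-Ab1 at -1.72, Cd27 at -1.67, Itga4 at -1.22 and Tnfrsf4 at -0.92. H2-Ab1 turned to 0.64 without doublet-like cells and to 1.23 under the tighter macrophage and neutrophil limits.

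Col3a1, a fibroblast collagen, had the highest value of the listed genes, 5.07, on 2, 4, 0 and 2 UMIs in Treg cells and 134, 3, 0 and 6 in conventional CD4 cells, and Col1a1, another collagen, had 251 UMIs in the conventional CD4 cells of OE-Vector 1. The part of fibroblast RNA in this value was not tested. With cells above 10000 UMIs left out, 14 genes passed in all. Tox, Nrp1, Tnfrsf4, Ccr2, Pclaf, Stmn1 and Hmgb2 were the listed genes among them.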

How the results depend on the processing

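The difference in the Treg share of T cells ranged from -1.005 to 0.757 percentage points when each OE-MLKL library was left out, that in the share of all cells from -0.257 to -0.163, and that in Treg cells per 100 CD8 T cells from -3.16 to 1.58. Tighter macrophage and neutrophil limits brought the difference in the Treg share of all cells to -0.0519. The class counts (124 higher, 155 lower) became 69 and 79 with DESeq2, 26 and 20 of 860 genes tested under the tighter limits, 64 and 63 with thinning, and 37 and 51 with no library term. All Foxp3-negative T cells as comparison gave 193 and 237, no filter on low counts gave 341 lower, and leaving out 1 library gave 80 to 145 higher and 90 to 168 lower. The group counts (5 higher, 7 lower) became 0 and 0 with DESeq2, 3 and 3 under the tighter limits, 1 and 2 without cells above 10000 UMIs, and 0 and 1 with thinning (43 genes at an unadjusted p under 0.05 by edgeR). Limma-voom gave 3 lower, and leaving out 1 library gave 0 to 23 higher and 0 to 22 lower. The 39 interaction calls became 0 with DESeq2, 65 with limma-voom, 24 with no filter, 2 with the tighter limits, 14 without cells above 10000 UMIs, and 19 to 34 with 1 library left out. The differences in the Treg share of T cells and in Treg cells per 100 CD8 T cells took both signs, as given above. Gene values that changed sign were Egr1 between classes (0.16 under the tighter limits), AY036118 between groups (-0.51 without OE-MLKL 2, 3.20 without OE-MLKL 3) and H2-Ab1 between groups (0.83 without doublet-like cells). In the interaction they were Mki67 (-0.081 under the tighter limits) and H2-Ab1 (0.64 without doublet-like cells, 1.23 under the tighter limits). The tighter limits and thinning also tested fewer genes; otherwise the cause was not tested. The 2 alternatives on deep cells and on thinning between groups were chosen after seeing the data.

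No paired analysis was possible because the analysed libraries of the groups share only replicate number 1. With 22 to 64 Treg cells and 1 OE-Vector tumour, small differences between groups could not be detected, and no tumour-to-tumour spread is known for OE-Vector.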
